A study of Mus musculus with 119 samples.

Results

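Spi1, Csf1r, Mertk, Trem2, Cx3cr1 and Ccr2 are genes by which macrophages and the monocytes they come from are recognised and maintained, and their rows were taken by symbol from a table of normalised RNA-seq expression, in which they were 6 of 18098 genes. The table held libraries of bone marrow-derived macrophages (BMDMs) from mice of the C57BL/6(NIMR) strain, in 25 groups of 3 to 6, and the 6 genes had a value in every library. The study asked how TPL-2, the protein kinase encoded by Map3k8, shapes the transcriptional response of macrophages to LPS, a cell wall component of Gram-negative bacteria that is sensed by TLR4. Marrow of both femurs had been grown in medium with L-cell conditioned medium, a source of the CSF1R ligand CSF1, and the cells of all groups were then replated overnight in medium whose listed components did not include it.

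PU.1, the product of Spi1, is an ETS-family transcription factor required for the formation of macrophages, and CSF1R, a receptor tyrosine kinase, gives macrophages their main survival and growth signal. MERTK is a receptor tyrosine kinase through which macrophages take up apoptotic cells, and TREM2 is a lipid-sensing surface receptor that signals through the adaptor DAP12. CX3CR1 and CCR2 are the chemokine receptors that distinguish patrolling from inflammatory monocytes, and CCR2, the receptor for CCL2, is usually lost as monocytes mature into resident macrophages.

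WT cells were left without LPS (n = 6) or received 100 ng/ml LPS for 0.5 h (n = 6), 1 h (n = 6) or 2 h (n = 4). Map3k8[D270A] cells, in which a point mutation inactivates TPL-2, were taken at the same 4 times (n = 6 each). Elk1-/-Elk4-/- cells, which lack a pair of ETS-family partners of serum response factor, were also taken at those 4 times (n = 4 each). Nfkb1[SS/AA] cells carry serine-to-alanine changes in p105, the NF-κB1 precursor that binds TPL-2 and releases it when degraded, and were taken at 0, 0.5 and 1 h (n = 6 each). PD0325901, an inhibitor of the kinases MKK1/2 that act between TPL-2 and ERK1/2, was given to WT cells at 0.1 µM for 10 min before LPS for 0.5 or 1 h (n = 6 each) and without LPS for 10, 40 or 70 min (n = 3 each), beside DMSO for 10 min (n = 3). RSKi47, an inhibitor of the ERK1/2-activated kinases RSK1/2, was given to WT cells at 2 µM for 10 min before LPS for 0 h (n = 4), 0.5 h (n = 3), 1 h (n = 4) or 2 h (n = 4). WT and Map3k8[D270A] libraries carried one experiment label and each of the other arms carried a label of its own, so for those arms the genotype or agent and the experiment cannot be told apart in a comparison with WT. The study's methods describe the libraries as biological replicates. They are numbered within a group and the labels do not say whether a number is an animal or a culture, so the tests measure the spread between these libraries.

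All values are log2 normalised expression as deposited, and differences are in log2 units. The sources do not say which transformation gave them and no counts were used, so library depth is unknown and differences are not restated as folds. A gene was called where the adjusted p of limma's moderated test (Benjamini-Hochberg over all genes tested) was under 0.05, and the 6 genes were read beside the percentage of all 11884 or 11971 tested genes called in the same comparison. The 7 macrophage markers Adgre1, Cd68, Fcgr1, Lyz2, Itgam, Cd14 and Mrc1 passed the filter on low values in every arm, with a summed level of 18.3 to 19.1 over libraries. No listed marker of T cells, B cells, mast cells or basophils, or erythroid cells passed it, and of 3 glial markers 1 did, with a summed level of 4.07 to 5.26. Elk1 (6.17 to 6.59) and Elk4 (5.51 to 5.88) were lower in every Elk1-/-Elk4-/- library than in any other library, where they were at least 8.55 and 6.88. The library labelled Nfkb1[SS/AA] 1 h replicate 2 stood farthest from its group over all genes, with a root mean square deviation of 0.253 against a median of 0.116, followed by RSKi47 2 h replicate 4 (0.218) and Map3k8[D270A] 2 h replicate 4 (0.202).

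In GRCm38.p6, Spi1 lies at chr2:91082374-91115759, Mertk at chr2:128698915-128803162, Cx3cr1 at chr9:120048683-120068296, Ccr2 at chr9:124101918-124109140 and Trem2 at chr17:48346401-48352276. Promoter sequences from RefSeq (GRCm38.p6) were matched for 4 of the 6 genes, and the 250 bases before the start were searched on both strands for 4 motifs. GGAA, the core bound by ETS-family factors such as PU.1, was present in 93.4% of 32851 promoters, GAGGAA in 23.3%, CCGGAA, an ELK-type form, in 12%, and TGANTCA, a pattern that takes in the AP-1 motifs TGAGTCA and TGACTCA, in 6.75%. Mertk held 5 matches to GGAA, Trem2 4, Ccr2 3 and Cx3cr1 2. Trem2 also held 1 GAGGAA, which contains one of its GGAA matches, and 1 TGANTCA, 9 bases before the start, whose letters TGAATCA are neither of those AP-1 motifs, while CCGGAA was not among the letters of these 4 windows. The windows of Mertk, which fell at 2 h of LPS in every arm measured then, and of Trem2, the one of the 4 that held TGANTCA, are shown on the + strand with every motif match in capitals (TTCC is GGAA on the other strand). They cover chr2:128698665-128698914 and chr17:48346151-48346400 and overlap 0 annotated exons. A match describes the letters and is not a binding site.
Mertk: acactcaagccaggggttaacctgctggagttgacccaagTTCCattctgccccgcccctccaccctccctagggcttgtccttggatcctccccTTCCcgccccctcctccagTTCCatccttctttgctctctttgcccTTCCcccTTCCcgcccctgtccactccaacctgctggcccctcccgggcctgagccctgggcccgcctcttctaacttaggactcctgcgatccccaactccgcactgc
Trem2: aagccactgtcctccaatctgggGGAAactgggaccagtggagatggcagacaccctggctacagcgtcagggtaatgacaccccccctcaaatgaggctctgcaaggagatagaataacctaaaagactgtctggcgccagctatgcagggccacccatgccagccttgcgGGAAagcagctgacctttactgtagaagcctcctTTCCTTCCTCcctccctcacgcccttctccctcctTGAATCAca

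The 6 genes differed in how far libraries of one group lay apart. The pooled within-group SD was 0.389 for Ccr2, larger than that of 99.0% of genes, and 0.310 for Cx3cr1, larger than that of 97.7%. It was 0.148 for Mertk, 0.0867 for Csf1r, 0.0789 for Trem2 and 0.0723 for Spi1, and 24.9% of genes had a smaller SD than Spi1. The Ccr2 spread followed the library number across times: the SD between the 6 WT numbers was 0.548 and the residual SD within them 0.147. These SDs were 0.250 and 0.157 for Cx3cr1, 0.156 and 0.062 for Mertk, and 0.110 and 0.0363 for Csf1r. For Trem2 they were 0.0341 and 0.0326 and for Spi1 0.0541 and 0.0570. WT number 9 had the highest Ccr2 at 0, 0.5 and 1 h, at 12.14, 12.11 and 12.08, and it had no 2 h library. The dendritic cell marker list also differed by number: its summed level at 0 h was 13.15 to 13.55 in WT numbers 4 to 6 and 12.12 to 12.89 in numbers 7 to 9, where Ccr2 was 10.64 to 11.24 and 11.31 to 12.14. Within each set of numbers the list and Ccr2 rose together. Ccr2 was 10.64, 11.10 and 11.24 in numbers 4, 5 and 6, beside 13.15, 13.45 and 13.55 for the list. It was 11.31, 11.82 and 12.14 in numbers 8, 7 and 9, beside 12.12, 12.60 and 12.89. The list members Flt3 and Zbtb46 were at 1.13 to 1.39 and 2.68 to 5.33 in WT libraries. The part of this list in the Ccr2 spread was not tested. In WT cells every one of 30 correlations between same-numbered libraries, taken over all genes as deviations from the group means, was over 0.1 (lowest 0.164), and in Nfkb1[SS/AA] cells every one of 18 (lowest 0.145). The fit with library number as a block was therefore given beside the LPS responses of these 2 arms wherever it changed a call. In the plot of WT libraries by number the lines of Ccr2 keep nearly the same order at each time.

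**Figure D1:**
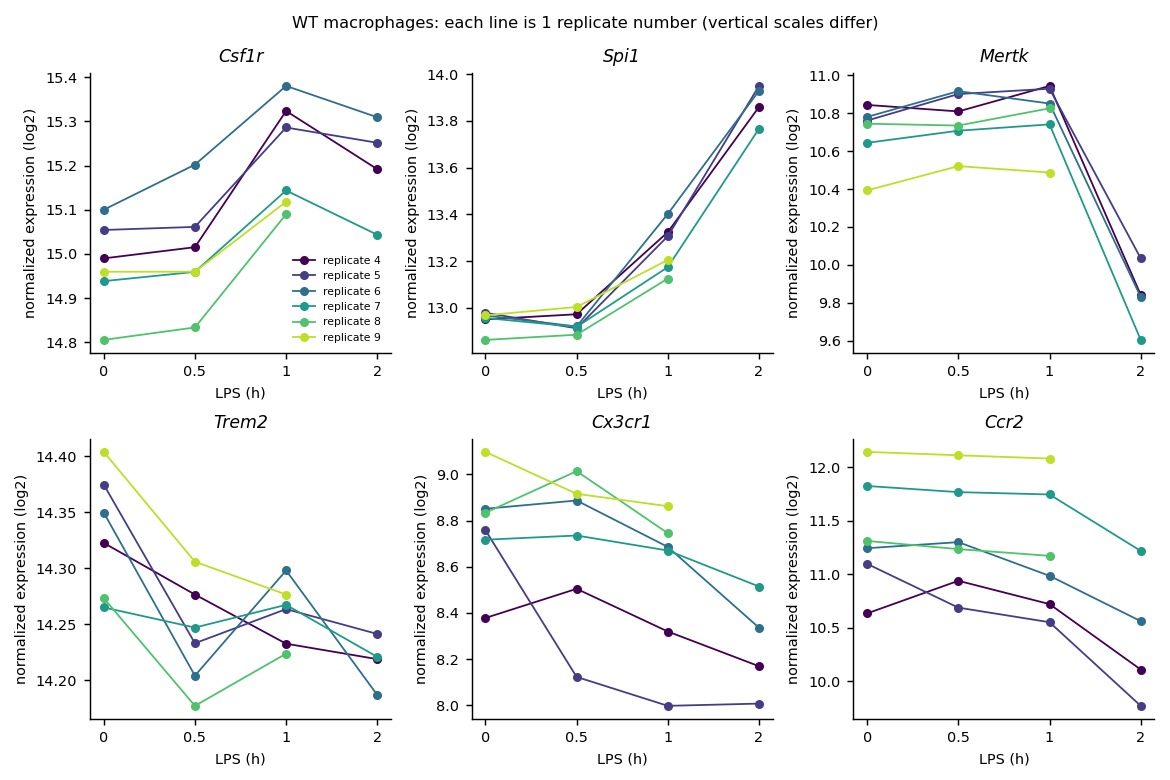
Normalised expression (log2) of the 6 genes in WT BMDMs against time of LPS (h), 1 line per library number and vertical scales that differ between panels. Spi1 rises at 1 and 2 h in every line, Mertk drops between 1 and 2 h in all 4 lines that reach 2 h, the Ccr2 lines run from 10.64 to 12.14 at 0 h, and the rise of Csf1r changes sign under quantile normalization.

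What LPS did to these genes in WT cells was asked first. No gene of the 6 was called at 0.5 h, where 11.6% of all genes were. At 1 h 2 were called, Spi1 and Csf1r, against 46.8% of all genes. At 2 h all 6 were called, against 71.5%, with 2 higher and 4 lower, where 34.7% of all genes were higher and 36.8% lower. None of the differences reached 1 in size, as 11.0% of all genes did with a call. The median size of the 2 h difference was 0.69 for the 6 genes and 0.29 for all genes. The 6 genes were chosen with earlier results of these data known, so these sizes are given as a description. A lower level in bulk RNA can come from fewer cells of a type or from less RNA per cell, which cannot be told apart here. Marker sums also moved in WT cells. That of the 7 macrophage markers was 18.53 to 18.73 without LPS and 18.81 to 18.92 at 2 h. The stromal sum was 4.55 to 4.93 and 5.82 to 6.25, with its member Pdgfrb at a mean of 3.20 and 5.61. The neutrophil and dendritic cell sums overlapped between these times. The part of these markers in the differences of the 6 genes was not tested.

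Spi1, the PU.1 gene, rose with LPS. Its WT values ran from 12.86 to 12.98 (median 12.96) without LPS, from 12.89 to 13.00 (median 12.92) at 0.5 h and from 13.13 to 13.40 (median 13.26) at 1 h, and the 4 libraries at 2 h were at 13.86, 13.95, 13.93 and 13.77. Every 1 h and 2 h library lay above every unstimulated one, as for 29.6% and 58.3% of all genes in either direction. The difference was 0.31 (SE 0.04, adjusted p = 1.02e-09) at 1 h and 0.93 (SE 0.04, adjusted p = 2.52e-26) at 2 h. Under quantile normalization it was 0.08 at 1 h and 0.54 at 2 h, both still called.

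Csf1r, the CSF1 receptor gene at chr18:61105572-61131139 in GRCm38.p6, was higher at 1 and 2 h as deposited. Unstimulated WT libraries ran from 14.81 to 15.10 (median 14.97), those at 1 h from 15.09 to 15.38 (median 15.21), and those at 2 h were at 15.19, 15.25, 15.31 and 15.04, so the groups overlapped at both times. The difference was 0.25 (SE 0.05, adjusted p = 4.68e-05) at 1 h and 0.22 (SE 0.06, adjusted p = 0.000485) at 2 h as deposited, but -0.10 (adjusted p = 0.0851) and -0.27 (adjusted p = 1.51e-05) under quantile normalization. Csf1r is among the genes with the highest values, and over the 200 highest genes the median 2 h difference was 0.14 as deposited and -0.28 after quantile normalization, against -0.02 and -0.11 for all genes. A direction for Csf1r therefore depends on the scaling.

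Mertk, the apoptotic cell receptor gene, fell at 2 h. Unstimulated WT libraries were between 10.39 and 10.84 (median 10.75) and those at 1 h between 10.49 and 10.94 (median 10.84). At 2 h the 4 libraries were at 9.84, 10.03, 9.83 and 9.60, all below every library of the earlier times. The 2 h difference was -0.87 (SE 0.11, adjusted p = 2.25e-10), and it was -0.93 with library number as a block. At 1 h it was 0.10 (95% interval -0.09 to 0.29), which was not called.

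Trem2 moved little as deposited. Its unstimulated WT libraries ran from 14.26 to 14.40 (median 14.34), and at 2 h they were at 14.22, 14.24, 14.19 and 14.22, just below all of them. The 2 h difference was -0.11 (SE 0.05, adjusted p = 0.0247). The call was lost when WT library 4, 5, 6 or 9 was left out (adjusted p up to 0.0959). It was also lost with WT libraries 4 to 6 alone (adjusted p = 0.0545). With number as a block Trem2 was also called at 0.5 h (-0.09, adjusted p = 0.0408), where 21.9% of genes were. Under quantile normalization the differences were larger, at -0.16, -0.40 and -0.59 at 0.5, 1 and 2 h, and all 3 were called (adjusted p at most 0.00212). The direction of Trem2 did not depend on the scaling in WT cells, but its size did.

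Cx3cr1 and Ccr2 were lower at 2 h, each with overlapping groups. Cx3cr1 ran from 8.38 to 9.10 (mean 8.77) without LPS and was at 8.17, 8.01, 8.34 and 8.51 at 2 h, a difference of -0.52 (SE 0.21, adjusted p = 0.0225). Ccr2 ran from 10.64 to 12.14 (median 11.28) without LPS and was at 10.11, 9.77, 10.56 and 11.22 at 2 h, a difference of -0.96 (SE 0.28, adjusted p = 0.00219). Each of the 4 numbers with a 2 h library was lower at 2 h than without LPS for both genes. The Cx3cr1 call was lost without WT library 5 or 9, where the adjusted p reached 0.0783. The difference lay between -0.61 and -0.44 over the 6 libraries left out in turn. The call was also lost with WT libraries 4 to 6 alone (adjusted p = 0.0995). With number as a block both genes were already called at 1 h, Cx3cr1 at -0.23 (adjusted p = 0.00433) and Ccr2 at -0.17 (adjusted p = 0.0244), where 57.6% of genes were, and the 2 h differences were -0.40 and -0.78.

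Several genes for ligands of CCR2, CX3CR1 and CSF1R rose. At 2 h 71.5% of all genes were called, which is the background for each list. Of 10 tested genes in a list of chemokine receptors and ligands of CCR2 or CX3CR1, 8 rose and 1 fell at 2 h, with a list median of 1.96 against -0.02 for all genes. The CCR2 ligands Ccl7 (3.31), Ccl12 (3.29) and Ccl2 (2.78) and the CX3CR1 ligand Cx3cl1 (3.13) rose while the receptor genes fell. Of 8 tested CSF1R ligands and partners 4 rose and 1 fell: the ligand gene Csf1 rose by 3.03 and Adam17, which sheds receptors including CSF1R, by 0.88. Of 12 macrophage transcription factors 6 rose, led by Tfec (2.75) and Cebpb (1.30), and 5 fell, among them Cebpa (-1.96).

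Other genes of apoptotic cell clearance moved both ways. Of 10 tested genes of that list 3 rose and 3 fell at 2 h, a smaller share than that of all genes called, with Itgav, an integrin subunit that binds bridged apoptotic cells, at 2.59, the MERTK relatives Tyro3 at 0.88 and Axl at 0.36, and the scavenger receptor gene Stab1 at -0.54. Of 9 tested TREM2 and DAP12 signalling genes 3 rose and 2 fell, again a smaller share than that of all genes. Syk, the kinase recruited by DAP12, was at 1.28, the inhibitory receptor gene Cd33 at 1.03 and the phosphatase gene Inpp5d at -0.87, while Tyrobp, which encodes DAP12 itself, was at 0.02 (adjusted p = 0.733).

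**Figure D2:**
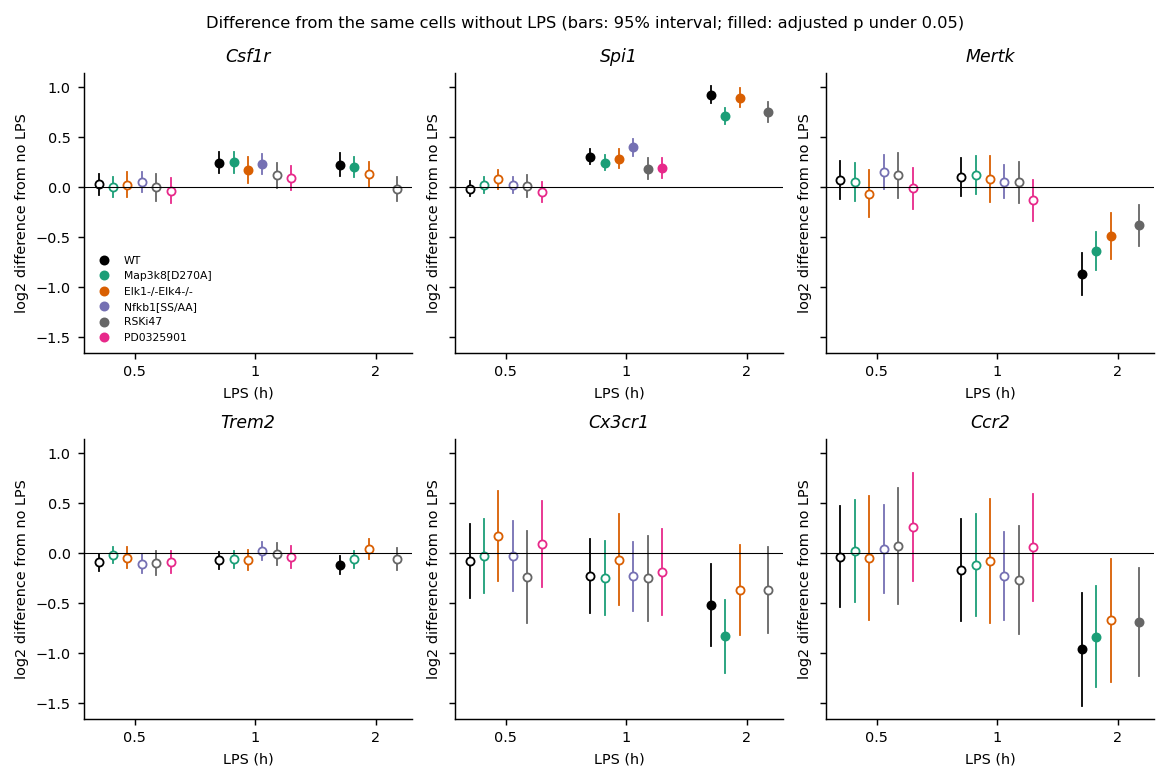
Log2 difference of each gene from the same cells without LPS (for PD0325901, from PD0325901 alone for 40 or 70 min) at 0.5, 1 and 2 h, by arm, with 95% intervals as bars and calls at an adjusted p under 0.05 as filled points. Mertk is lower and Spi1 higher at 2 h in every arm measured at that time, and under quantile normalization the filled Csf1r points turn negative except that of Map3k8[D270A] at 1 h.

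The same responses were taken within the other arms. At 0.5 h none of the 6 genes was called in Map3k8[D270A], Elk1-/-Elk4-/-, Nfkb1[SS/AA], PD0325901 or RSKi47 cells, against 5.08%, 4.96%, 14.6%, 14.9% and 5.10% of all genes. An unadjusted p under 0.05 was reached by 1486, 1569, 3151, 3247 and 1854 genes. At 1 h Spi1 and Csf1r both rose by 0.25 in Map3k8[D270A] cells (2 called, against 41.9%), and Spi1 rose by 0.19 in RSKi47 cells (1 called, against 29.0%). Under quantile normalization none of these 3 was called, with Spi1 at 0.05 and Csf1r at 0.04 in Map3k8[D270A] and Spi1 at -0.0071 in RSKi47 cells. At 2 h Spi1 rose by 0.72 in Map3k8[D270A], 0.90 in Elk1-/-Elk4-/- and 0.76 in RSKi47 cells, and Mertk fell by 0.63, 0.49 and 0.38, in each case with no overlap between the groups, as for 47.5%, 60.8% and 53.2% of all genes. Under quantile normalization these Spi1 values were 0.36, 0.50 and 0.45, all still called, and Spi1 in Nfkb1[SS/AA] cells at 1 h, 0.40 as deposited, was 0.14. In Map3k8[D270A] cells 5 of the 6 genes were called at 2 h, against 69.5% of all genes, with Cx3cr1 at -0.83 (SE 0.18, adjusted p = 7.47e-05) and Ccr2 at -0.83 (SE 0.25, adjusted p = 0.00300). In Elk1-/-Elk4-/- cells 2 were called against 67.2% of all genes, and in RSKi47 cells 3 against 62.2%. These tests did not pair libraries by number. Cx3cr1, not called in either arm, was lower at 2 h in every number. In Elk1-/-Elk4-/- cells 7.45, 7.63, 7.05 and 8.26 went to 7.19, 7.16, 6.67 and 7.91. In RSKi47 cells 9.96, 10.21, 10.17 and 10.42 went to 9.61, 9.92, 9.80 and 9.96. Ccr2 was at -0.67 (adjusted p = 0.0509) in Elk1-/-Elk4-/- cells, just short of a call, and 6 of 7 alternatives called it (adjusted p at most 0.0487), all but the fit with no filter on low values (adjusted p = 0.0770). It was at -0.69 (adjusted p = 0.0222) in RSKi47 cells, where the call was lost without RSKi47 library 1 or 3 (adjusted p up to 0.0578). Csf1r rose by 0.17 at 1 h in Elk1-/-Elk4-/- cells (adjusted p = 0.0268) and Spi1 by 0.29, 2 calls against 33.3% of genes. The Csf1r call was lost without any one of the 4 libraries (adjusted p up to 0.0977), and its difference was -0.14 under quantile normalization, where the Spi1 value was 0.08 and not called. At 1 h Spi1 rose by 0.40 and Csf1r by 0.23 in Nfkb1[SS/AA] cells (2 called, against 44.4%), and Spi1 by 0.19 under PD0325901 against PD0325901 alone (1 called, against 43.6%). Under quantile normalization the Csf1r value in Nfkb1[SS/AA] cells was -0.071 and the Spi1 value under PD0325901 -0.039, neither of them called. With number as a block, Nfkb1[SS/AA] cells also had calls for Cx3cr1 (-0.23, adjusted p = 0.000693) and Ccr2 (-0.23, adjusted p = 0.000277) at 1 h, where 53.7% of genes were called, and for Mertk (0.15, adjusted p = 0.0291) and Trem2 (-0.10, adjusted p = 0.0388) at 0.5 h, where 24.0% were.

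Without number as a block, Trem2 was not called as deposited in these 5 arms at any time. Under quantile normalization it was lower at 1 h in all 5, from -0.35 in Elk1-/-Elk4-/- to -0.26 in RSKi47 cells, and at 2 h in the 3 arms measured then, from -0.44 to -0.43, and each of these 8 values was called.

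Whether an arm changed the LPS response was tested as the difference between its response and that of WT, in which a constant difference between experiments cancels. For Map3k8[D270A] at 2 h, 1 of the 6 genes was called against 15.5% of all genes: Spi1 rose less than in WT, by -0.21 (SE 0.06, adjusted p = 0.00720). For RSKi47 at 2 h, 2 were called against 21.0%: Mertk fell less than in WT, with a difference of 0.49 (SE 0.14, adjusted p = 0.00678), and Csf1r was at -0.24 (SE 0.08, adjusted p = 0.0247). The Mertk difference was 0.52 (adjusted p = 0.0102) without RSKi47 library 4. The Csf1r call was lost without WT library 8 or RSKi47 library 4 (adjusted p up to 0.0862), under quantile normalization, and with only the compared groups in the fit (adjusted p = 0.119). For Elk1-/-Elk4-/- at 2 h, Nfkb1[SS/AA] at 1 h and PD0325901 at 1 h none of the 6 was called, against 16.9%, 6.07% and 3.58% of all genes, and 3446, 2065 and 1667 genes had an unadjusted p under 0.05. The Mertk difference for Elk1-/-Elk4-/- was 0.38 (95% interval 0.07 to 0.70, adjusted p = 0.0882), and it was called with the libraries of all arms in the fit (adjusted p = 0.0455). The Cx3cr1 interval ran from -0.87 to 0.24 for Map3k8[D270A] and from -0.43 to 0.73 for RSKi47.

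With library number as a block within each arm these differences gave more calls. The rule for pairing, every correlation of same-numbered libraries over 0.1, was met in WT and Nfkb1[SS/AA] cells and not in the other 4 arms. The median correlation was 0.483 in WT and 0.401 in Nfkb1[SS/AA] cells. It was 0.425 in Map3k8[D270A], 0.318 in RSKi47, 0.231 in Elk1-/-Elk4-/- and 0.0708 in PD0325901 cells. Failing the rule therefore does not show that libraries were unpaired. With the block, Cx3cr1 (-0.44, adjusted p = 0.00129) and Mertk (0.30, adjusted p = 0.00324) were called for Map3k8[D270A] beside Spi1, against 28.4% of all genes. For Elk1-/-Elk4-/- Mertk (0.45, adjusted p = 0.000117) and Trem2 (0.16, adjusted p = 0.0275) were called, against 30.2%. Spi1 was added for RSKi47 (-0.15, adjusted p = 0.0306, against 31.8%) and Csf1r for PD0325901 (-0.15, adjusted p = 0.00331, against 7.43%), and no call was added for Nfkb1[SS/AA].

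The role of TPL-2 kinase activity was examined by comparing Map3k8[D270A] with WT cells at each time. None of the 6 genes was called at 0, 0.5 or 1 h, where 1.44%, 1.37% and 9.79% of all genes were, and 1420, 1338 and 2615 genes had an unadjusted p under 0.05. At 2 h Spi1 alone was called, against 27.7%. The Map3k8[D270A] libraries were at 13.49 to 13.78 (median 13.64) and the WT libraries at 13.77 to 13.95, so that 1 mutant library, number 4 at 13.78, reached the WT range. The difference was -0.24 (SE 0.04, adjusted p = 1.76e-05). It was -0.15 and not called when WT libraries 7 to 9 were set against Map3k8[D270A] libraries 4 to 6, which leaves 1 WT library at 2 h. With WT libraries 4 to 6 set against Map3k8[D270A] libraries 1 to 3 it was -0.25 (adjusted p = 6.5e-06), and Spi1 at 1 h (-0.17, adjusted p = 0.00361) and Mertk at 2 h (0.26, adjusted p = 0.0169) were called as well. The labels give only numbers and do not match these sets, so the sets are not known to be batches.

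With all libraries the other 5 genes gave no call at 2 h in Map3k8[D270A] cells. Mertk was at 10.13, 9.99, 10.36, 9.48, 9.79 and 9.91, around the WT values, with a difference of 0.11 (95% interval -0.10 to 0.33). Ccr2 was 0.29 to 0.41 above WT at the 4 times, within intervals that all included 0, and its Map3k8[D270A] libraries at 2 h spanned 10.22 to 11.56. Cx3cr1 ran from 7.91 to 8.15 at 2 h, a difference of -0.21 (95% interval -0.62 to 0.21). Of the partners, Cebpb, an LPS-induced transcription factor, was at -1.53 against WT at 2 h and 6 of 12 factors in its list were lower and 1 higher, where 13.1% of all genes were lower. The list of chemokine receptors and ligands had 5 lower and 1 higher of 10, with Ccr1 at -0.67 and Cx3cl1 at -0.66. The inhibitory receptor gene Cd33 was at -1.07. At 2 h the summed level of the 7 macrophage markers was 18.59 to 18.78 against 18.81 to 18.92, below every WT library. The neutrophil, dendritic cell and stromal sums overlapped WT. The part of these markers in the Spi1 difference was not tested.

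**Figure D3:**
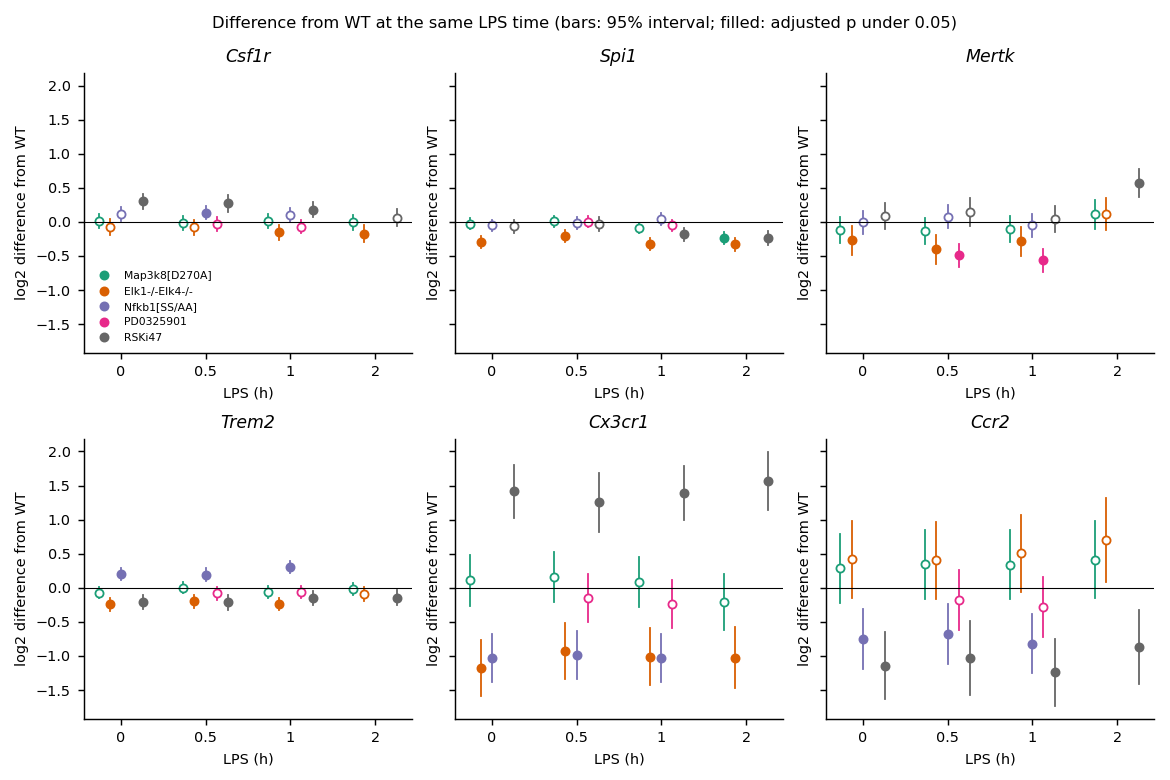
Log2 difference of each arm from WT at the same time of LPS (h), with 95% intervals as bars and calls at an adjusted p under 0.05 as filled points. Cx3cr1 lies 1.25 to 1.57 above WT in RSKi47 cells and 0.92 to 1.17 below it in Elk1-/-Elk4-/- cells, and the one filled Map3k8[D270A] point is that of Spi1 at 2 h.

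Cells without the ternary complex factors ELK1 and ELK4 were compared with WT cells next. In Elk1-/-Elk4-/- cells 4, 4, 5 and 3 of the 6 genes were called at 0, 0.5, 1 and 2 h, all of them lower, while 51.8%, 44.4%, 53.4% and 50.8% of all genes were called in either direction and 24.6%, 22.0%, 26.2% and 23.1% were lower. Cx3cr1 had the largest difference. Its Elk1-/-Elk4-/- libraries were at 7.45, 7.63, 7.05 and 8.26 without LPS and at 7.19, 7.16, 6.67 and 7.91 at 2 h, and at both times all 4 lay below every WT library. Library 4 was the highest at each time and overlapped WT at 0.5 and 1 h. The difference from WT was -1.17 (SE 0.21, adjusted p = 4.28e-06) without LPS and -0.92, -1.01 and -1.02 at the later times. A call with a size of at least 1, reached by Cx3cr1 at 0, 1 and 2 h, was made for 1.24%, 1.53% and 2.09% of all genes. With each library left out in turn the difference ran from -1.39 to -0.99, from -1.24 to -0.82 and from -1.25 to -0.83 at these times, the smallest each time without Elk1-/-Elk4-/- library 3, and it was still called.

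Spi1 and Trem2 were lower by less but more evenly. Spi1 was at 12.64, 12.65, 12.69 and 12.63 without LPS, below every WT library, and the groups did not overlap at any of the 4 times, as for 39.1%, 29.4%, 36.7% and 41.2% of genes in either direction. Its differences were -0.30, -0.21, -0.32 and -0.33 (adjusted p from 0.000119 to 2.18e-08). Trem2 was at 14.04, 14.14, 14.22 and 13.95 without LPS, again below every WT library. It differed by -0.24, -0.20 and -0.24 (adjusted p at most 0.000517) up to 1 h, and the 2 h difference of -0.09 was not called (adjusted p = 0.145). Tyrobp, which encodes the TREM2 adaptor DAP12, was at -0.31 without LPS and Apoe, whose product is a TREM2 ligand, at -1.70. In the list of TREM2 and DAP12 signalling genes 3 of 9 were lower, 2 higher, among them Treml2 at 1.19, and 4 not called, with a median of 0.04 against 0.01 for all genes.

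Mertk and Csf1r were closer to their error. Mertk differed by -0.27 (adjusted p = 0.0314), -0.40 (adjusted p = 0.00182) and -0.28 (adjusted p = 0.0219) at 0, 0.5 and 1 h. The calls at 0 and 1 h were lost without each of 6 and 3 libraries of the 10 left out in turn: WT 4, 5, 6 and 8 and Elk1-/-Elk4-/- 1 and 4 at 0 h (adjusted p up to 0.139), and WT 4 and Elk1-/-Elk4-/- 1 and 4 at 1 h (adjusted p up to 0.0839). Csf1r was called at 1 h (-0.15, adjusted p = 0.0204) and 2 h (-0.17, adjusted p = 0.0189). Those calls were lost without WT library 4 or Elk1-/-Elk4-/- library 3 at 1 h (adjusted p up to 0.0676) and without WT library 5 or 6 or Elk1-/-Elk4-/- library 3 at 2 h (adjusted p up to 0.112), the 1 h call also under quantile normalization, at -0.03, and both with only the compared groups in the fit (adjusted p = 0.0595 and 0.0827). The MERTK relative Axl was at -1.26 without LPS, and 4 of 10 tested genes of its list were lower and 1 higher, close to the 51.8% of all genes called in either direction.

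Ccr2 had higher values than WT in Elk1-/-Elk4-/- cells and was not called. It was at 11.91, 11.78, 11.73 and 11.74 without LPS, inside the WT range, and differed from WT by 0.42, 0.40, 0.51 and 0.70 at the 4 times (adjusted p = 0.0525 at 2 h). The 2 h difference was called without WT library 7 and with the libraries of all arms in the fit (adjusted p = 0.0232), and 1 h without WT library 9. Neutrophil and monocyte markers moved with this arm. The summed level of 9 neutrophil markers was 10.05 to 11.05 in the 16 Elk1-/-Elk4-/- libraries and 6.31 to 7.77 in the 22 WT libraries, with Ngp at 7.88 to 9.10 against 3.53 to 5.19. The defining markers Ly6g and Elane were near the floor but also above every WT library. They were at -0.13 to 0.60 against -0.24 to -0.16 and at 0.07 to 0.95 against -0.15 to -0.05. The summed level of the monocyte or progenitor markers was 7.01 to 7.89 against 6.63 to 7.10, with Ly6c2 at 4.49 to 5.88 against 2.85 to 3.58, Kit at 5.87 to 7.45 against 4.89 to 6.50, and Cd34 in the other direction at 4.34 to 5.05 against 5.10 to 6.04, below every WT library. Itgax of the dendritic cell list was also below every WT library, at 9.72 to 10.13 against 10.47 to 11.95. The summed level of the 7 macrophage markers was lower at each time, with 18.29 to 18.38 against 18.53 to 18.73 without LPS and 18.58 to 18.66 against 18.81 to 18.92 at 2 h. Its members did not all move one way: Lyz2, the largest, was below every WT library at 17.47 to 17.78 against 17.85 to 18.23, Fcgr1 was above every one at 12.60 to 12.99 against 11.90 to 12.41, and the medians of Mrc1 (14.11 against 13.75) and Adgre1 (15.38 against 15.20) were higher. The part of these markers in the differences of the 6 genes was not tested.

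Cells with non-degradable p105 were compared with WT at 3 times. In Nfkb1[SS/AA] cells 3, 4 and 3 of the 6 genes were called at 0, 0.5 and 1 h, against 32.0%, 32.3% and 42.5% of all genes. Cx3cr1 and Ccr2 were both lower. Cx3cr1 libraries without LPS were at 7.43 to 8.53 (median 7.59), with library 4 highest at all 3 times and the other 5 below every WT library. The differences were -1.03 (SE 0.18, adjusted p = 1.58e-06), -0.98 and -1.03, and 0.451%, 0.585% and 1.06% of all genes had a larger one. At 0 and 1 h, where its size was over 1, 0.510% and 1.17% of genes had a call of that size, and it lay between -1.19 and -0.96 and between -1.22 and -0.96 with each library left out in turn.

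Ccr2 without LPS was at 10.37 to 10.9988 (median 10.54) in Nfkb1[SS/AA] and at 10.64 to 12.14 in WT cells, so the groups overlapped. The differences were -0.76 (SE 0.22, adjusted p = 0.00516), -0.68 (SE 0.22, adjusted p = 0.0122) and -0.82 (SE 0.22, adjusted p = 0.00159). Without WT library 9, the highest of its group, the 0.5 h call was lost (adjusted p = 0.0537). A fit with number as a block ended the Ccr2 calls at every time, although numbers did not pair WT with Nfkb1[SS/AA] libraries. Of 10 genes in the list of chemokine receptors and ligands 5 were lower, among them Ccl7 at -0.67, and 2 higher without LPS, where 15.1% of all genes were lower.

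Trem2 was higher in Nfkb1[SS/AA] cells. Its libraries ran from 14.49 to 14.58 (median 14.54) without LPS and from 14.40 to 14.95 (median 14.51) at 1 h, above every WT library at all 3 times, as for 14.4%, 14.5% and 12.8% of genes in either direction. The differences were 0.20 (SE 0.05, adjusted p = 0.000222), 0.19 (SE 0.05, adjusted p = 0.000447) and 0.30 (SE 0.05, adjusted p = 3.4e-08). Without library 2, the one at 14.95, the 1 h difference was 0.22 (adjusted p = 2.93e-06). Csf1r was called at 0.5 h only (0.14, adjusted p = 0.0284), and 5 of the 12 libraries left out in turn ended that call: WT 7, 8 and 9 and Nfkb1[SS/AA] 1 and 4 (adjusted p up to 0.113). Spi1 and Mertk were not called, with differences between -0.05 and 0.07. The neutrophil marker sum was 6.78 to 8.37 in these libraries against 6.31 to 7.77 in WT. The monocyte or progenitor sum was 6.23 to 6.62, below every WT library (6.63 to 7.10), and so was Adgre1, the F4/80 gene, at 14.70 to 14.99 against 15.09 to 15.68, while the sum of the 7 macrophage markers was 18.64 to 19.14 against 18.51 to 18.92. Their part in the lower Cx3cr1 and Ccr2 values was not tested.

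MKK1/2 inhibition was compared with WT cells after LPS for 0.5 or 1 h. Under PD0325901 Mertk alone was called at each time, against 29.4% and 35.7% of all genes. Its libraries ran from 10.12 to 10.45 (median 10.27) at 0.5 h and from 10.14 to 10.36 (median 10.23) at 1 h, below every WT library, as for 16.3% and 17.9% of genes. The differences were -0.49 (SE 0.08, adjusted p = 3.1e-06) and -0.56 (SE 0.08, adjusted p = 5.54e-08). Without LPS, DMSO libraries of the same experiment were at 10.34, 10.36 and 10.39, also lower than WT (-0.33, SE 0.10, adjusted p = 0.0140, with 23.6% of genes called), a call that was lost without DMSO library 1 or 2 (adjusted p up to 0.0579). PD0325901 for 10 min was at 10.25, 10.28 and 10.39, beside the DMSO values.

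PD0325901 for 10 min against DMSO gave 0 calls among 11971 genes by limma, and 245 genes had an unadjusted p under 0.05. The Mertk difference was -0.06 (95% interval -0.30 to 0.18). None of the 6 genes was called between PD0325901 for 40 or 70 min and for 10 min, against 3.58% and 6.09% of all genes. Trem2 was at 14.17, 14.19 and 14.17 under DMSO, below every WT library, as 29.3% of genes were below or above (-0.16, SE 0.06, adjusted p = 0.0290), and this call was lost without WT library 5 or 9 or any DMSO library (adjusted p up to 0.0924). The summed level of the neutrophil list was 8.11 to 8.35 and 8.28 to 8.82 under PD0325901 with LPS for 0.5 and 1 h, above every WT library at the same times (6.31 to 7.27 and 6.46 to 7.77). It was 7.57 to 8.27 in the DMSO libraries. The monocyte or progenitor sum was 6.40 to 6.48 and 6.27 to 6.59 at these times, below every WT library (6.69 to 6.94 and 6.63 to 7.10), and 6.35 to 6.52 under DMSO. The part of either list in the Mertk difference was not tested. No DMSO sample with LPS entered the comparison, so the agent, its solvent and the experiment cannot be told apart for Mertk.

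RSK1/2 inhibition was compared with WT at all 4 times, and Cx3cr1 had its largest difference there. In RSKi47 cells 4, 4, 5 and 5 of them were called against WT at 0, 0.5, 1 and 2 h, beside 53.0%, 48.2%, 52.8% and 52.1% of all genes. Cx3cr1 was higher and Ccr2 lower at all 4 times, including 0 h, when the inhibitor had been present for 10 min. The arm had an experiment label of its own and no solvent sample. The agent, its solvent and the experiment therefore cannot be told apart for these differences. Cx3cr1 was at 9.96, 10.21, 10.17 and 10.42 at 0 h and at 9.61, 9.92, 9.80 and 9.96 at 2 h, above every WT library at all 4 times, as for 38.5%, 42.5%, 32.6% and 39.1% of genes. The differences were 1.42 (SE 0.20, adjusted p = 2.01e-09), 1.25, 1.39 and 1.57 (SE 0.22, adjusted p = 1.4e-09). A call with a size of at least 1 was made for 1.34%, 1.29%, 1.55% and 2.00% of genes, and 7 such calls fell on Cx3cr1 (4) and Ccr2 (3). The Cx3cr1 values stayed over 1 in every alternative, with a lowest of 1.14. Those of Ccr2 fell short of that size, still called, when single libraries were left out: -0.88 and -0.92 at 0 and 1 h without RSKi47 library 4, -0.99 at 0 h and -0.88 at 0.5 h without WT library 9, and -0.94 and -0.99 at 0.5 h without WT library 7 or RSKi47 library 2.

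Ccr2 was at 10.51, 10.38, 10.59 and 9.46 in RSKi47 cells at 0 h, below every WT library, and at 9.81, 9.78, 9.87 and 8.73 at 2 h, where the groups overlapped. RSKi47 library 4 was the lowest at each time it was measured. The differences were -1.14 (SE 0.25, adjusted p = 5.71e-05), -1.03, -1.24 and -0.87 (SE 0.27, adjusted p = 0.00485). The 2 h call was lost without WT library 7 or RSKi47 library 4, where the smallest difference was -0.59 (adjusted p up to 0.0667), and with only the compared groups in the fit (adjusted p = 0.0735). The CCR2 ligand genes Ccl2 and Ccl7 were at -1.09 and -1.01 at 0 h, in a list of which 3 of 10 were lower, 2 higher and 5 not called.

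**Figure D4:**
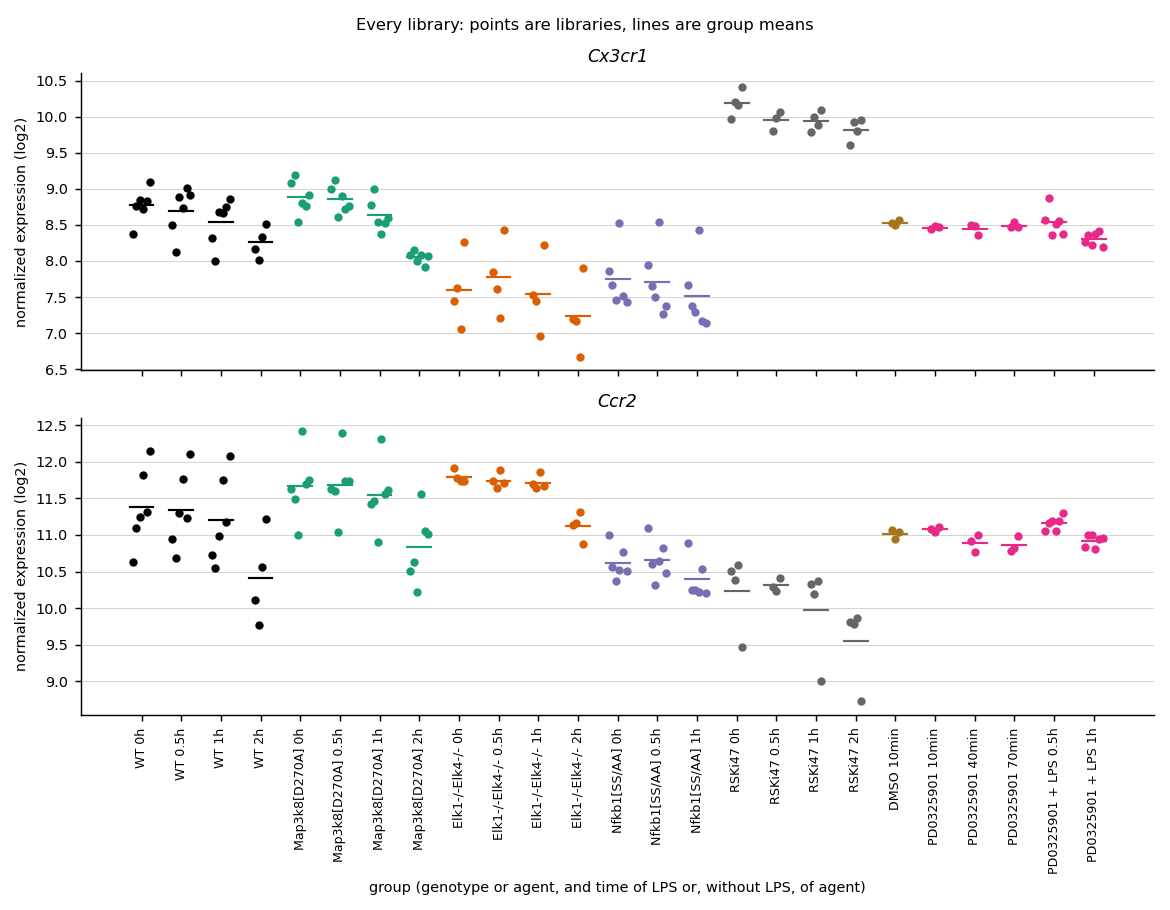
Normalised expression (log2) of Cx3cr1 and Ccr2 in every library, 1 point per library and a line at each group mean, by group. The RSKi47 groups have the 4 highest Cx3cr1 means (9.82 to 10.19) and the 4 lowest Ccr2 means (9.55 to 10.31), while Elk1-/-Elk4-/- and Nfkb1[SS/AA] groups share the 7 lowest Cx3cr1 means.

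Mertk was called in RSKi47 cells at 2 h. Its libraries were then at 10.22, 10.58, 10.40 and 10.41, above all 4 WT libraries, with a difference of 0.58 (SE 0.10, adjusted p = 1.63e-06), and 0.57 without RSKi47 library 4. At 0, 0.5 and 1 h the difference was 0.09, 0.14 and 0.04, not called. Mfge8, which encodes a bridge between apoptotic cells and integrins, was at 2.28 at 0 h, and 3 of 10 tested genes of the clearance list were higher and 3 lower, near the 53.0% of all genes called.

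Csf1r, Trem2 and Spi1 had smaller differences under RSKi47. Csf1r was at 15.30, 15.27, 15.36 and 15.19 at 0 h, above every WT library (0.30, SE 0.06, adjusted p = 2.59e-06), and the difference was 0.27, 0.18 and 0.06 at the later times, the last not called and the 1 h call lost with only the compared groups in the fit (adjusted p = 0.0618). Trem2 was at 14.04, 14.11, 14.12 and 14.22 at 0 h, below every WT library (-0.21, SE 0.05, adjusted p = 0.000340), and it was lower at all 4 times. Its calls at 1 and 2 h were lost under quantile normalization (-0.04 and -0.03), at 1 h without RSKi47 library 1, and at 2 h without WT library 5 or RSKi47 library 1 (adjusted p up to 0.109) and with only the compared groups in the fit (adjusted p = 0.0501). Spi1 was called at 1 and 2 h of LPS, at -0.18 at 1 h (adjusted p = 0.000608) and -0.24 at 2 h (adjusted p = 5.93e-05), with no overlap at either time.

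Dendritic cell and stromal markers moved with this arm. The summed level of the dendritic cell list was 13.8 to 14.7 in the 15 RSKi47 libraries and 12.1 to 14.5 in WT, with Itgax at 12.0 to 12.5 against 10.5 to 12.0, while the defining markers Flt3 and Zbtb46 were at 1.15 to 1.53 and 2.81 to 4.72. The stromal list was at 5.41 to 9.44 against 4.52 to 6.25, with Col1a1 at 3.43 to 9.03 against 2.25 to 3.44 and Col1a2 at 4.03 to 7.28 against 2.71 to 3.94. Of its other members Dcn was near the floor at -0.89 to -0.81, and Col3a1 (1.46 to 2.09) and Pdgfrb (3.26 to 5.11) overlapped WT. The neutrophil list was at 7.12 to 8.60 against 6.31 to 7.77. The macrophage marker Mrc1 was below every WT library, at 12.52 to 13.36 against 13.57 to 13.99. The part of these markers in the Cx3cr1 and Ccr2 differences was not tested.

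Over all 25 groups each gene had its own order of levels. Cx3cr1 spanned 2.95 log2 units between group means, from 10.19 in RSKi47 at 0 h to 7.23 in Elk1-/-Elk4-/- at 2 h, and Ccr2 spanned 2.24, from 11.79 in Elk1-/-Elk4-/- at 0 h to 9.55 in RSKi47 at 2 h. Spi1 spanned 1.23, from 13.88 in WT at 2 h to 12.65 in Elk1-/-Elk4-/- at 0 h. Mertk spanned 1.08, with the lowest mean, 9.83, in WT at 2 h, and Trem2 0.54 and Csf1r 0.50. Most neighbours in these orders differed by less than their pooled SD, namely 24 of 24 pairs for Csf1r, 23 for Mertk, 22 for Ccr2, 21 for Trem2, 20 for Cx3cr1 and 18 for Spi1.

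The genes most like each of the 6 were read from Pearson's r of group means over the 25 groups, which share libraries, times and experiments, so r is given as a description. Eif6 (0.986), Prkcd (0.974) and Tes (0.974) were most like Spi1, and Nrp1 (0.940), Pdk2 (0.919) and Nckap5l (0.913) most like Mertk. Sema4d (0.892), Bag3 (0.888) and Igf1 (0.887) were most like Csf1r, and Tmem106c (0.932), Arl2 (0.921) and Khk (0.916) most like Trem2. Ptprs (0.923), Olfml3 (0.911) and Hnrnpl (0.911) were most like Cx3cr1, and Dusp19 (0.944), Tmod1 (0.938) and Tspan32 (0.933) most like Ccr2. None of the 6 was among the 3 most like another: the farthest from 0 among their 15 pairs was -0.751, between Csf1r and Ccr2, and r between Mertk and Spi1 was -0.534.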

How the data were processed

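RNA-seq libraries of BMDMs were measured by the authors. Per the submitters' processing notes, STAR 2.5.1b, RSEM 1.2.29, DESeq2 1.10.1 and the mm10 build were used. The deposited values were log2 normalised expression, for which the sources name no transformation, and no counts were used, so sequencing depth is unknown and no counting interval could be given. Columns were matched to libraries by name, and groups were taken from the labels. The 6 genes and all lists were chosen with earlier results of these data known.

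Differences were tested with limma 3.58.1 in R 4.3.3, with Benjamini-Hochberg adjustment over all genes tested and a call at an adjusted p under 0.05. WT, Map3k8[D270A] and Elk1-/-Elk4-/- were compared in a fit of 62 libraries and 11884 genes that reached 10 on the linear scale in 4 or more libraries. Other comparisons came from a fit of all 119 libraries and 11971 genes that did so in 3 or more. In all, 29 contrasts gave 174 tests of the 6 genes, and the LPS responses within the mutant and inhibitor arms were added after the data were seen. Of the values, 1 over 25 (Fosb in RSKi47 1 h replicate 1) was treated as missing. Levels of a marker list were summed on the linear scale and returned to log2. The text names the 6 genes, genes with large differences in each list, the 3 genes most like each of the 6, and a few ligands or adaptors chosen after their values were seen. Some genes of these lists are not reported here. Same-numbered libraries were taken as paired in WT and Nfkb1[SS/AA] from the correlations of their deviations, not from the labels. Scripts were tested on simulated data. Alternatives were other scalings, filters, fits, a replicate block and leaving out each replicate.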

Additional observations from a re-analysis of the deposited data

Results flagged for a closer look

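Within groups of 4 to 6 libraries, 7 of 120 sets of values had a library far from the others, where chance gives about 6 (1 in 20). RSKi47 replicate 4 was low for Ccr2 at 1 h, at 8.997 against 10.19 to 10.37 in the rest, and at 2 h, at 8.73 against 9.78 to 9.87. Trem2 accounted for 4 sets: Map3k8[D270A] 0.5 h replicate 4 was at 14.37 against 14.19 to 14.25, PD0325901 with LPS for 0.5 h replicate 3 at 14.24 against 14.12 to 14.16, PD0325901 with LPS for 1 h replicate 1 at 14.13 against 14.21 to 14.24, and Nfkb1[SS/AA] 1 h replicate 2 at 14.95 against 14.40 to 14.52. Spi1 in unstimulated WT replicate 8 was at 12.86 against 12.95 to 12.98.

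The LPS response differed from that of WT for 3 of 30 gene and arm pairs tested by an interaction term in limma. Of all genes, 15.5% were called for Map3k8[D270A], 16.9% for Elk1-/-Elk4-/-, 21.0% for RSKi47, 6.07% for Nfkb1[SS/AA] and 3.58% for PD0325901, so 3 of 30 does not stand out. Spi1 rose less at 2 h in Map3k8[D270A] (-0.21, adjusted p = 0.0072). Under RSKi47 at 2 h Mertk fell less (0.49, adjusted p = 0.00678) and Csf1r had a lower response (-0.24, adjusted p = 0.0247).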

How the results depend on the processing

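Over 252 differences of the 6 genes, leaving out the filter on low values changed no call, an intensity trend in limma 1, equal library medians 3 and a fit of only the compared groups 14. Quantile normalization ended 12 calls, added 21 and turned 32 signs, 21 of them of values called under neither scaling. The other 11 were, for Csf1r under LPS, WT -0.10 at 1 h and -0.27 at 2 h, Map3k8[D270A] -0.21 at 2 h, Elk1-/-Elk4-/- -0.14 at 1 h and -0.42 at 2 h, Nfkb1[SS/AA] -0.071 and PD0325901 -0.14 at 1 h. They were, for Trem2, Elk1-/-Elk4-/- -0.43 at 2 h and Nfkb1[SS/AA] -0.30 at 1 h, and for Spi1 at 1 h, PD0325901 -0.039 and RSKi47 -0.0071. The cause was not tested. Requiring a size of at least 1 left 0 of 8 calls for LPS in WT, 0 of 1 for Map3k8[D270A], 3 of 16 for Elk1-/-Elk4-/-, 2 of 10 for Nfkb1[SS/AA], 0 of 2 for PD0325901 with LPS, 0 of 2 for PD0325901 and DMSO without LPS, 7 of 18 for RSKi47 and 0 of 3 differences between responses.

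With a replicate block the counts were 11, 22, 7, 4, 2 and 18 in the comparisons of these arms with WT or DMSO, in that order, 11 for LPS in WT and 9 for differences between responses. The block ended all 3 Ccr2 calls for Nfkb1[SS/AA] against WT, at -0.32, -0.24 and -0.38 (adjusted p = 0.207, 0.346 and 0.114), its Csf1r call at 0.5 h and that of RSKi47 at 1 h. It added Ccr2 calls against WT at all 4 times in Map3k8[D270A] (0.82 to 0.94) and Elk1-/-Elk4-/- (1.07 to 1.19). Between WT and another arm the numbers did not pair libraries: of correlations at the same time and number, 12 of 12 with Map3k8[D270A], 8 of 9 with Nfkb1[SS/AA], 3 of 6 with PD0325901, 3 of 3 with RSKi47 and 4 of 4 with Elk1-/-Elk4-/- were at or under 0.1, as were 2 of 36 within Map3k8[D270A], 4 of 24 within Elk1-/-Elk4-/-, 19 of 33 within PD0325901 and 1 of 21 within RSKi47. WT 4 to 6 with Map3k8[D270A] 1 to 3 gave 3 calls and WT 7 to 9 with Map3k8[D270A] 4 to 6 gave 0. Leaving out 1 replicate at a time gave 6 to 8 calls for LPS in WT, 1 to 2 for Map3k8[D270A], 13 to 17 for Elk1-/-Elk4-/-, 8 to 13 for Nfkb1[SS/AA], 2 in every case for PD0325901 with LPS, 0 to 2 for PD0325901 and DMSO without LPS, 16 to 18 for RSKi47 and 2 to 4 differences between responses.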
